A study of Homo sapiens with 12 samples.

Results

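The experiment studied here asked what hydrogen peroxide (H2O2) changes when it is present while neuroblastoma cells differentiate. It comprised 6 of the 12 RNA-seq libraries of the series, chosen by their labels: 3 from SH-SY5Y cells given all-trans retinoic acid (ATRA) for 7 days without H2O2, and 3 from cells given H2O2 together with ATRA over the same 7 days. SH-SY5Y is a subline of the human neuroblastoma line SK-N-SH, so all libraries come from 1 line of tumour origin, and both groups received ATRA. No library without ATRA is among the 6, so the effect of ATRA itself was not measured. The peroxide dose is given in conflicting units by the sources (millimolar in the deposited description, micromolar in the methods), and is not printed here. Nothing states whether the 3 libraries of a group came from separate cultures, and p-values then measure only the spread between these libraries.

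ATRA binds nuclear retinoic acid receptors and drives SH-SY5Y cells to leave the cell cycle and grow neurites. H2O2 is a diffusible oxidant that catalase, glutathione peroxidases and peroxiredoxins remove. Cells answer it through several known routes: the transcription factor NRF2 (antioxidant enzymes), p53 (cell-cycle arrest and repair after DNA damage), and redox-sensitive kinase signalling downstream of growth factor receptors. Neuroblastoma cells also hold a core circuit of transcription factors (HAND2, GATA3 and others) that keeps their sympathetic, noradrenergic character.

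The 6 libraries held 27576276 to 63182696 reads assigned to genes. Small structured RNAs took 5.11% to 13.1% of these reads and did not divide the groups. Control replicate 1 stood apart in the mitochondrial ribosomal RNA MT-RNR1, with 1204 CPM (read counts scaled to a common library size), against 35.1 to 75.8 CPM in the other 5 libraries. Noradrenergic markers set for the cell type were present, since DBH had 659, 435 and 471 CPM with ATRA alone and 482, 338 and 321 CPM with H2O2, whereas TH, the first enzyme of catecholamine synthesis, had at most 16 reads in any library and was too low to test. The 10 neuronal markers (TUBB3, ENO2, MAP2, MAPT, SV2A and 5 others) were all detected, with log2 fold changes (log2FC, H2O2 with ATRA against ATRA alone) of -0.42 to 0.12 and none called. Leukocyte markers summed to 0.672 to 2.02 CPM in the 6 libraries, endothelial markers to 1.93 to 4.10 CPM and Schwann and glial markers to 6.5 to 8.05 CPM. Fibroblast markers summed to 160.4 to 255 CPM with ATRA alone and to 166.4 to 199 CPM with H2O2, and epithelial markers to 7.74 to 9.10 CPM and 9.94 to 12.1 CPM. None of these markers was called, and the part of the epithelial markers in the results was not tested.

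Of 22089 genes tested, 132 (0.598%) differed between the groups at a false discovery rate (FDR, the adjusted p) below 0.05 and an absolute log2FC above 0.6 in edgeR's quasi-likelihood test. H2O2 raised 74 genes (0.335% of those tested) and lowered 58 (0.263%), and these shares are the background against which the gene groups are read. The gene lists were chosen with earlier results of these data known, so a share above the background is not independent evidence. The rise was more than 2-fold in 51 genes, and 30 of those that fell had less than 0.5 times the control level. In all 132, the 3 treated libraries lay wholly above or wholly below the 3 controls, as they did in 6.65% (higher) and 7.3% (lower) of all genes tested. The pairwise exact test of edgeR called 307 genes (1.39%), 165 higher and 142 lower, and included all 132. Scaled by library size alone, the data gave 57 genes that rose and 23 that fell.

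**Figure D1:**
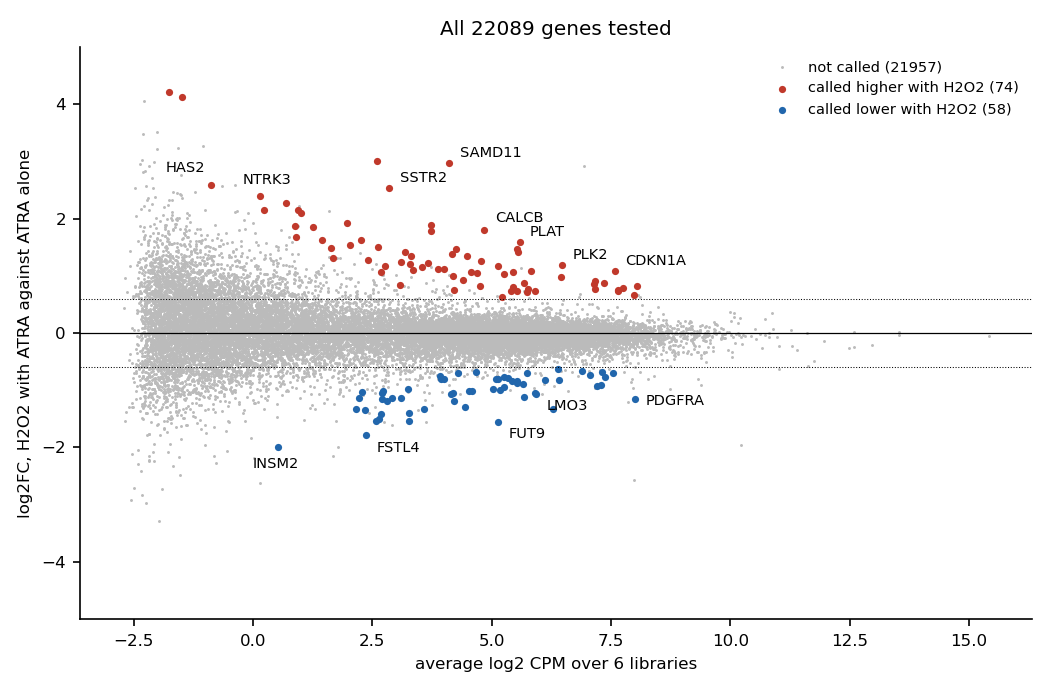
All 22089 genes tested, with the average log2 CPM over 6 libraries on the x axis and the log2FC of H2O2 with ATRA against ATRA alone on the y axis. Red points are the 74 genes called higher and blue points the 58 called lower, grey points were not called, and dotted lines mark a log2FC of 0.6 in either direction. SAMD11, SSTR2 and HAS2 lie among the strongest increases, and FUT9, FSTL4 and INSM2 among the strongest decreases.

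The calls depended on the libraries. Without control replicate 1, 218 genes were called, but 49 without control replicate 2, 54 without treated replicate 2 and 18 when treated replicate 3 was left out. Those 18 were called with any 1 library left out: SAMD11, RP11-54O7.3, AP000479.1, PLAT, CALCA, CALCB, SSTR2, EDNRA, KITLG, CHST8, CRTAC1, ENC1, PLK2, MSX2, TMEM229A, LMO3, FUT9 and FSTL4. Scaled by library size alone, 79 of the 132 were called. Among the gene lists described below, that scaling gave 6 p53 targets and 6 BMP and TGF-beta targets. It also gave 1 noradrenergic or neuroblastoma transcription factor, 1 ERK feedback gene and no cytokine, Wnt or hypoxia gene. Every other call given below was lost without treated replicate 3, but none of the 132 genes changed direction with any 1 library left out.

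A group of p53 targets rose with H2O2. Of 41 p53 target genes listed, 40 passed the filter on low counts, and 9 of them (22.5%) were called higher and none lower, against 0.335% of all genes for the rise. The median log2FC of the 40 was 0.29, where the median over all genes was -0.00095, and 36 of the 40 were above 0, as were 49.9% of all genes. In 17 of the 40 the 3 treated libraries were all above the 3 controls, against 6.65% of all genes. As this list was chosen with earlier results of these data known, its shares are not independent evidence.

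The cell-cycle inhibitor CDKN1A (p21), which holds cells in G1, had 122, 131 and 115 CPM with ATRA alone and 271, 223 and 286 CPM with H2O2. Every treated library was above every control and no library of one group reached the other (log2FC 1.09, standard error 0.13, adjusted p = 0.00349). PLK2, a polo-like kinase that p53 induces and that acts at synapses in neurons, had 56.1, 52.4 and 55.2 CPM with ATRA alone and 113, 133 and 125 CPM with H2O2, with a spread within each group that was small against the gap (log2FC 1.18, standard error 0.12, adjusted p = 0.00126). EDA2R, a receptor of the tumour necrosis factor family, had 16.6, 19.4 and 14.5 CPM with ATRA alone and 33.1, 34.9 and 36.7 CPM with H2O2, again without overlap (log2FC 1.05, standard error 0.14, adjusted p = 0.00546). The secreted stress cytokine GDF15 had 13.3, 12.9 and 10.2 CPM with ATRA alone and 26.1, 17.8 and 28.7 CPM with H2O2, with treated replicate 2 nearest to the controls (log2FC 0.99, standard error 0.19, adjusted p = 0.0366).

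The other called members were 4 protein-coding genes and 1 noncoding RNA. DRAM1, a lysosomal protein that promotes autophagy, had 2.19, 1.46 and 1.16 CPM with ATRA alone and 6.53, 5.19 and 6.64 CPM with H2O2 (log2FC 1.92, standard error 0.26, adjusted p = 0.00605). SPATA18, which acts in mitochondrial quality control, had 4.31, 4.37 and 3.64 CPM with ATRA alone and 7.8, 9.81 and 10.2 CPM with H2O2 (log2FC 1.18, standard error 0.18, adjusted p = 0.0135). STEAP3, a ferrireductase of endosomes, had 3.58, 1.88 and 1.5 CPM with ATRA alone and 7.73, 5.95 and 7.93 CPM with H2O2 (log2FC 1.62, standard error 0.30, adjusted p = 0.0307). In all of these the lowest treated library was above the highest control. PTCHD4, a patched-domain protein that represses hedgehog signalling, had 6.66, 5.61 and 4.54 CPM with ATRA alone and 10.5, 17.2 and 14.8 CPM with H2O2 (log2FC 1.34, standard error 0.21, adjusted p = 0.0141). The long noncoding RNA LINC01021 had 1.21, 1.1 and 0.665 CPM with ATRA alone and 2.25, 4.49 and 4.09 CPM with H2O2, and treated replicate 1 was the lowest of the treated libraries in both genes (log2FC 1.86, standard error 0.33, adjusted p = 0.0263).

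Not all p53 targets moved. The ubiquitin ligase MDM2, which degrades p53, had a log2FC of 0.22 (adjusted p = 0.763), the cyclin CCNG1 of 0.12 (adjusted p = 0.893) and the death receptor TNFRSF10B of 0.24 (adjusted p = 0.713). FAS and TNFRSF10A, death receptors named after their values were seen, had 0.769, 0.718 and 0.578 CPM with ATRA alone and 1.37, 2.45 and 2.1 CPM with H2O2 and 1.52, 1.54 and 1.97 CPM with ATRA alone and 3.2, 2.61 and 4.49 CPM with H2O2. Both were called by the exact test (11 of 40 members, all higher, against 0.747% of all genes) but not by the quasi-likelihood test (log2FC 1.52 and 1.04, adjusted p = 0.0686 and 0.166). The BCL2 family, which decides mitochondrial cell death, held no called gene among 15 tested, with log2FC values of -0.40 to 1.00 and a median of 0.07. Without control replicate 2, 4 p53 targets were called, 6 without control replicate 3, 5 without treated replicate 2 and 1, PLK2, when treated replicate 3 was left out.

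The regions around these genes were searched for the p53 consensus site, a tandem of 2 half-sites, without a spacer, that each hold a C and a G at fixed places, with at most 1 mismatch elsewhere. Within 5000 bases of the annotated 5′ end of the gene in GENCODE v44 lifted to GRCh37 (hg19), 4 of the 9 called members (44.4%) held a match. Of the 31 tested members that were not called, 5 (16.1%) held one, and of all 16790 tested genes with a position 181 (1.08%). A difference between called and other members was not tested. The matches of the called members follow, 5′ to 3′ on the plus strand, with the fixed C and G in capitals. Their likeness is set by the search, and they are a description, not a sign of binding.
PLK2 (chr5:57758101-57758120, plus strand): gggCaaGtccaggCatGttt
PTCHD4 (chr6:48078934-48078953, plus strand): gggCaaGtctgggCaaGcct
EDA2R (chrX:65858555-65858574, plus strand): ggaCacGtccaggCatGttc
GDF15 (chr19:18484757-18484776, plus strand): agaCctGcccggaCatGtcc
The PTCHD4 match lay directly before the 5′ end of the gene and the PLK2 match at -2145 bases from it (negative positions lie before the gene). In EDA2R the match was at 575 bases, inside the gene, and in GDF15 at -774 bases.

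A second group that rose held targets and feedback inhibitors of bone morphogenetic protein (BMP) and transforming growth factor beta (TGF-beta) signalling. In this pathway, ligands activate receptor kinases, SMAD proteins carry the signal to the nucleus, and ID genes and inhibitory SMADs are among the first genes transcribed. Of 23 such targets listed, 20 were tested, and 8 (40.0%) were called higher and none lower, against 0.335% of all genes. HAS2, among the 8, passed the filter on low counts only through its treated libraries, so its call is no support for this share. The median log2FC of the 20 was 0.71, and 13 of them had all treated libraries above all controls, against 6.65% of all genes. This list too was chosen with earlier results of these data known, so its shares are not independent evidence.

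The ID proteins bind helix-loop-helix transcription factors and keep them from DNA. ID1 had 38.2, 39.2 and 43.00 CPM with ATRA alone and 71.2, 69.1 and 64.1 CPM with H2O2 (log2FC 0.76, standard error 0.12, adjusted p = 0.0119). ID2 had 130.2, 153 and 167 CPM with ATRA alone and 232, 265 and 251 CPM with H2O2 (log2FC 0.73, standard error 0.13, adjusted p = 0.0282). ID3 had 106, 113 and 102 CPM with ATRA alone and 191, 173 and 181 CPM with H2O2 (log2FC 0.77, standard error 0.12, adjusted p = 0.0113). The 3 genes had nearly the same fold change, and none of their groups overlapped. Reads of the ID4 gene were few, with mean values of 0.944 CPM with ATRA alone and 0.634 CPM with H2O2, and it was not called.

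The inhibitory SMADs, which bind the receptors and close a feedback loop, rose as well. SMAD6 had 13.97, 7.77 and 8.36 CPM with ATRA alone and 24.7, 28.8 and 30.4 CPM with H2O2 (log2FC 1.48, standard error 0.21, adjusted p = 0.00749). SMAD7 had 38.2, 36.3 and 29.8 CPM with ATRA alone and 58.2, 54.2 and 62.2 CPM with H2O2 (log2FC 0.74, standard error 0.13, adjusted p = 0.0266). The homeobox gene MSX2, a BMP target in neural crest derivatives, had 7.59, 4.66 and 4.63 CPM with ATRA alone and 19.98, 18.4 and 24.04 CPM with H2O2, the steepest rise of the listed targets that were above 1 CPM in every library (log2FC 1.88, standard error 0.21, adjusted p = 0.00166). HAS2, which makes hyaluronan, stood at 0.162, 0.106 and 0.145 CPM with ATRA alone and 0.667, 0.85 and 0.984 CPM with H2O2, on 5 to 8 reads per control library and 19 to 53 per treated library (log2FC 2.59, standard error 0.48, adjusted p = 0.0325). Its 3 control libraries lay below the 0.181 CPM filter, so HAS2 was tested only because its treated libraries were high.

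Genes that start the pathway did not share this rise. Of 31 BMP and TGF-beta ligands and receptors, 26 were tested, none was called higher, and INHBA, the activin A subunit, was called lower, with 31.1, 27.4 and 35.3 CPM with ATRA alone and 19.6, 19.3 and 19.9 CPM with H2O2 (log2FC -0.68, standard error 0.13, adjusted p = 0.0461). The median of these 26 was -0.06. Among the listed targets, the exact test also called the repressor TGIF2 lower, a gene named after its values were seen (log2FC -0.67, quasi-likelihood adjusted p = 0.101). The number of targets called was 2 without control replicate 2, 2 without treated replicate 1, 3 without treated replicate 2 and 1 (MSX2) without treated replicate 3, and INHBA kept its call without control replicate 1 alone.

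The BMP-responsive element GGCGCCNNNNNGTCT, read on both strands, was found within 5000 bases of the 5′ end in 4 of the 8 called targets (50%), in 3 of the 12 tested targets that were not called (25%), and in 184 of the 16790 genes with a position (1.10%). These shares and matches are a description, not a sign of binding, and a difference between called and other targets was not tested. One match per called gene is shown, on the strand on which it reads 5′ to 3′, with the fixed letters in capitals.
ID1 (chr20:30196437-30196451, plus strand): GGCGCCtggctGTCT
ID2 (chr2:8819072-8819086, plus strand): GGCGCCagagaGTCT
ID3 (chr1:23884979-23884993, minus strand): GGCGCCggccaGTCT
MSX2 (chr5:174147878-174147892, plus strand): GGCGCCcgcggGTCT
ID3 held 3 matches, of which the one nearest to its 5′ end is shown. The ID2 match lay 104 bases into the gene, that of ID1 at 3358 bases and that of MSX2 at -3700 bases from the 5′ end.

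Several sympathetic and neuroblastoma transcription factors fell with H2O2. The list holds 29 genes, of which several (DACH1, NR2F1, ZNF521, RUNX1T1, TOX, TOX2 and INSM2) were added with their change in these libraries known. Its direction, shares and median were thus partly fixed in advance and are not independent evidence. Of 27 tested, 9 (33.3%) were called lower and none higher, against 0.263% of all genes for the fall, and the median log2FC was -0.58. DACH1, NR2F1, ZNF521, RUNX1T1 and INSM2, all added in that way, are among the 9. In 16 of the 27 every treated library was below every control, against 7.3% of all genes. In these bulk libraries fewer cells that express a gene and less RNA per cell cannot be told apart.

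LMO3, a LIM-only cofactor with oncogenic activity in neuroblastoma, had 78.5, 81.7 and 88.1 CPM with ATRA alone and 42.2, 39.96 and 36.9 CPM with H2O2, and its treated libraries were near 0.5 times the controls (log2FC -1.06, standard error 0.12, adjusted p = 0.00166). TFAP2B, an AP-2 factor of sympathetic precursors, had 259.8, 195 and 157 CPM with ATRA alone and 121, 102 and 105 CPM with H2O2 (log2FC -0.90, standard error 0.17, adjusted p = 0.038). Control replicate 1 was the highest library for TFAP2B, and the groups did not overlap in either gene. MEIS1, a homeobox cofactor, had 136, 152 and 151 CPM with ATRA alone and 95.4, 98.1 and 82.8 CPM with H2O2 (log2FC -0.67, standard error 0.12, adjusted p = 0.0307). The zinc-finger factor INSM2 had 1.84, 2.34 and 2.52 CPM with ATRA alone and 0.457, 0.866 and 0.309 CPM with H2O2 (log2FC -2.00, standard error 0.39, adjusted p = 0.0409).

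The nuclear receptor NR2F1 (COUP-TF1), which acts in neural crest and is itself induced by retinoic acid, had 28.8, 22.9 and 21.7 CPM with ATRA alone and 13.1, 10.2 and 12.3 CPM with H2O2 (log2FC -1.04, standard error 0.16, adjusted p = 0.0119). RUNX1T1, a corepressor, had 12.3, 7.49 and 6.51 CPM with ATRA alone and 3.06, 2.71 and 3.26 CPM with H2O2 (log2FC -1.55, standard error 0.25, adjusted p = 0.0144). DACH1, a nuclear cofactor, had 39.9, 29.97 and 26.8 CPM with ATRA alone and 15.5, 17.4 and 14.95 CPM with H2O2 (log2FC -1.02, standard error 0.16, adjusted p = 0.0141), and the zinc-finger factor ZNF521 had 29.2, 33.2 and 29.9 CPM with ATRA alone and 18.1, 16.5 and 11.1 CPM with H2O2 (log2FC -1.02, standard error 0.18, adjusted p = 0.0231). For RUNX1T1 and DACH1, control replicate 1 was again the highest library.

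Core regulators of the noradrenergic state described here were not called. HAND2 had 560.4, 488 and 476 CPM with ATRA alone and 395, 305 and 317 CPM with H2O2 (log2FC -0.58, adjusted p = 0.119) and GATA2 a log2FC of -0.38 (adjusted p = 0.671). SOX11, TOX and TOX2, named after their values were seen, were called lower by the exact test, with log2FC values of -0.74, -0.83 and -1.55 and quasi-likelihood adjusted p = 0.0676, 0.0951 and 0.0586. All 7 tested markers of noradrenergic neuroblastoma had a log2FC below 0 (-0.80 to -0.13), and none was called. Scaled by library size alone, the data gave 1 called gene among the 27 transcription factors, and fits with a library left out gave 4 (control replicate 2), 3 (treated replicate 1), 2 (treated replicate 2) and 1 (treated replicate 3, LMO3).

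Other patterning factors fell beside them. Of 45 IRX and HOX homeobox genes, 13 were tested, and IRX3 and IRX5, neighbouring genes of one cluster, were called lower (15.4%, against 0.263% of all genes). IRX3 had 9.07, 9.22 and 9.19 CPM with ATRA alone and 4.32, 3 and 2.53 CPM with H2O2, and its 3 controls were nearly identical (log2FC -1.50, standard error 0.21, adjusted p = 0.00755). IRX5 had 8, 5.59 and 5.49 CPM with ATRA alone and 2.81, 2.89 and 2.99 CPM with H2O2 (log2FC -1.14, standard error 0.21, adjusted p = 0.0343). No HOX gene was called, with log2FC values from -0.59 (HOXD9) to 0.72 (HOXC5). IRX3 lost its call without treated replicate 2 (adjusted p = 0.0564) and treated replicate 3 (0.087), and IRX5 without any 1 library other than control replicate 3. Mesenchymal-state genes, which mark the alternative state of neuroblastoma cells, had 3 called of 22 tested, all higher (against 0.335% of all genes), among them VIM and ANXA2. The intermediate filament VIM had 9.78, 5.7 and 6.13 CPM with ATRA alone and 15.3, 15.2 and 17.7 CPM with H2O2 (log2FC 1.16, standard error 0.21, adjusted p = 0.0272), and the membrane-binding protein ANXA2 had 27.8, 29.3 and 37.8 CPM with ATRA alone and 50.9, 52.7 and 62.3 CPM with H2O2 (log2FC 0.81, standard error 0.15, adjusted p = 0.0297). Both calls were lost without control replicate 2 and without each treated replicate in turn, and that of VIM also without control replicate 3. The mesenchymal regulator TWIST1 had a log2FC of -0.48 (adjusted p = 0.124).

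**Figure D2:**
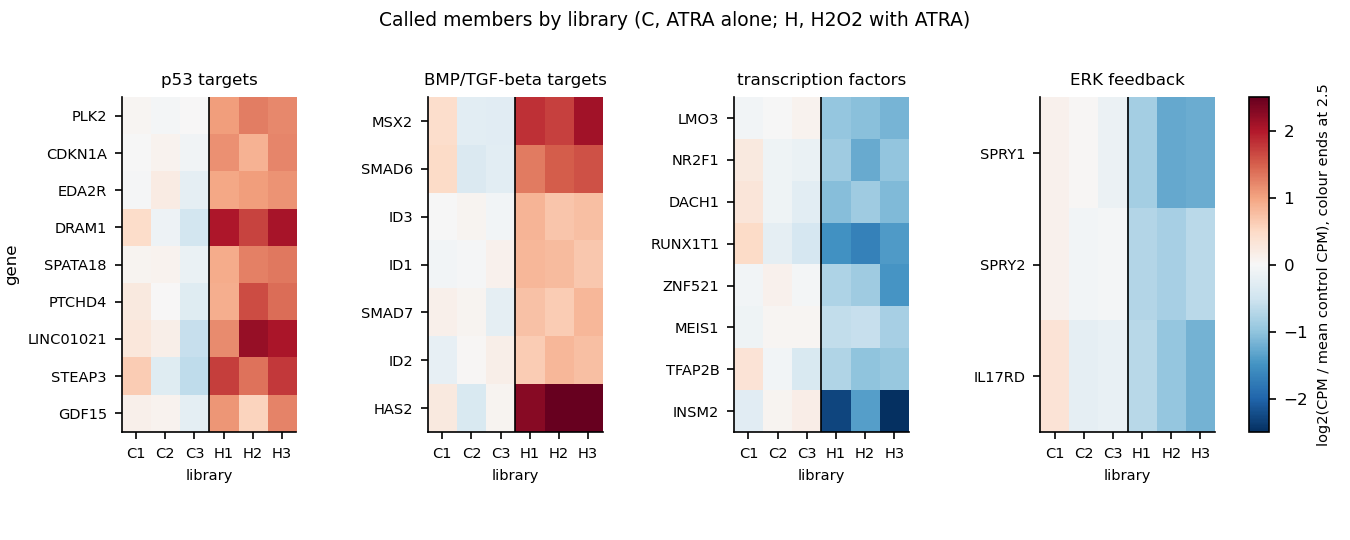
Called members of 4 gene lists described in the text, in each library, as the log2 ratio of CPM to the mean of the 3 control libraries (C1 to C3, ATRA alone; H1 to H3, H2O2 with ATRA). Red is above and blue below the control mean, and the colour scale ends at 2.5 in either direction. All p53 and BMP/TGF-beta targets shown are red and all transcription factors and ERK feedback genes blue in the 3 treated libraries.

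RNA of some ligands, receptors and feedback inhibitors of growth factor signalling changed, while signalling itself was not measured. SPRY1, which dampens receptor tyrosine kinase signalling to ERK, had 75.8, 71.5 and 63.1 CPM with ATRA alone and 39.2, 28.9 and 29.5 CPM with H2O2 (log2FC -1.11, standard error 0.15, adjusted p = 0.00505). Its relative SPRY2 had 20.3, 18.04 and 18.2 CPM with ATRA alone and 11.3, 10.6 and 11.7 CPM with H2O2 (log2FC -0.75, standard error 0.14, adjusted p = 0.0322). IL17RD (Sef), an inhibitor of fibroblast growth factor signalling, had 245, 166 and 170.4 CPM with ATRA alone and 120.3, 99.6 and 85.1 CPM with H2O2 (log2FC -0.93, standard error 0.18, adjusted p = 0.0366). These 3 of 17 tested ERK feedback and target genes were called lower, against 0.263% of all genes, and none higher. In 5 of the 17 every treated library was below every control, and in 3 every treated library was above (against 7.3% and 6.65% of all genes). DUSP4 (log2FC 0.46, adjusted p = 0.337) and the cyclin CCND1 (log2FC 0.35, adjusted p = 0.523) were among those above, and neither was called. The ERK phosphatase DUSP6 had a log2FC of -0.26 (adjusted p = 0.684). Of SPRY1, SPRY2 and IL17RD, 2 were called without control replicate 3 or treated replicate 1. Only 1 was called without control replicate 2 or treated replicate 2, and none without treated replicate 3.

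The platelet-derived growth factor receptor PDGFRA, a receptor tyrosine kinase of neural crest cells, had 335, 353 and 374 CPM with ATRA alone and 180.3, 172 and 126 CPM with H2O2 (log2FC -1.15, standard error 0.15, adjusted p = 0.00505). Its family's ligand PDGFD had 15.9, 16.2 and 19.2 CPM with ATRA alone and 7.48, 6.99 and 6.04 CPM with H2O2, with treated libraries below 0.5 times the lowest control (log2FC -1.32, standard error 0.16, adjusted p = 0.00324). KITLG, stem cell factor and ligand of the receptor KIT, moved the other way, with 24.1, 24.7 and 27.9 CPM with ATRA alone and 59.2, 68.6 and 76.6 CPM with H2O2 (log2FC 1.42, standard error 0.13, adjusted p = 0.00111). These were the 3 called of 10 tested ligands and receptors of this family, against 0.598% of all genes. KIT had few reads, with mean values of 1.39 CPM with ATRA alone and 2.17 CPM with H2O2 (log2FC 0.65, adjusted p = 0.646), and PDGFRB a log2FC of -0.27 (adjusted p = 0.764). Left out, treated replicate 3 ended the calls of PDGFRA and PDGFD (adjusted p = 0.0559 and 0.0522).

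Neurotrophins keep sympathetic and sensory neurons alive. Of 14 tested neurotrophin and GDNF family genes, 2 (against 0.335% of all genes) were called higher, among them a receptor, NTRK3. NTRK3 (TrkC), the receptor of neurotrophin 3, had 0.304, 0.317 and 0.376 CPM with ATRA alone and 1.3, 1.86 and 2.04 CPM with H2O2 (log2FC 2.39, standard error 0.35, adjusted p = 0.0093). The brain-derived neurotrophic factor receptor NTRK2, which ATRA is known to induce in these cells, had 479.8, 418 and 371 CPM with ATRA alone and 343, 334 and 309.7 CPM with H2O2, with a log2FC of -0.36 (adjusted p = 0.426). NGFR (p75), named after its values were seen, had 11.9, 8.17 and 4.57 CPM with ATRA alone and 18.3, 15.2 and 21.6 CPM with H2O2 and was called by the exact test (log2FC 1.15, quasi-likelihood adjusted p = 0.115). NTRK3 lost its call when control replicate 2 (adjusted p = 0.0564), treated replicate 2 (0.0564) or treated replicate 3 (0.103) was left out.

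Neuropeptides and their receptors held some of the smallest adjusted p-values. CALCA and CALCB encode calcitonin gene-related peptides, vasodilators of sensory neurons. CALCB had 11.7, 13.7 and 13.1 CPM with ATRA alone and 36.5, 46.9 and 50.2 CPM with H2O2 (log2FC 1.80, standard error 0.15, adjusted p = 3.70e-04). CALCA had 10.4, 9.5 and 9.89 CPM with ATRA alone and 21.8, 25.7 and 30.4 CPM with H2O2 (log2FC 1.39, standard error 0.15, adjusted p = 0.00166). In both, treated replicate 1 was the lowest treated library and still far above the controls. The pair is closely related in sequence and adjoins on chromosome 11: CALCA lies at 14988168 to 14993900 on the minus strand, inside the lifted annotation's span of CALCB, 14926543 to 15103888 on the plus strand, and the strand setting of the counting is not given in the sources used here, so the split of reads between them is uncertain. SSTR2, a somatostatin receptor typical of neuroblastoma, had 2.31, 1.52 and 2.54 CPM with ATRA alone and 8.5, 12.5 and 15.5 CPM with H2O2 (log2FC 2.53, standard error 0.26, adjusted p = 0.00136). These 3 were called of 15 tested in a list of 28 peptides, granule proteins and somatostatin receptors, against 0.598% of all genes. All 3 kept their calls with any 1 library left out. The granule protein CHGA had 808, 779 and 849 CPM with ATRA alone and 579, 498 and 324 CPM with H2O2 and was called by the exact test alone (log2FC -0.80, quasi-likelihood adjusted p = 0.101), and SCG2 had a log2FC of 0.36 (adjusted p = 0.476).

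EDNRA, the endothelin A receptor of neural crest and vascular cells, had 23.4, 21.3 and 20.01 CPM with ATRA alone and 47.1, 46.7 and 51.5 CPM with H2O2 (log2FC 1.17, standard error 0.12, adjusted p = 0.00136). CHRNA3, the nicotinic receptor subunit of autonomic ganglia, had 126, 113 and 107 CPM with ATRA alone and 224, 193 and 221 CPM with H2O2 (log2FC 0.88, standard error 0.12, adjusted p = 0.00749). GCH1, which makes the cofactor for tyrosine hydroxylase, had 140.2, 169.5 and 192 CPM with ATRA alone and 107, 95.2 and 98.6 CPM with H2O2 and fell (log2FC -0.74, standard error 0.14, adjusted p = 0.0329). CHRNA3 and GCH1 were the 2 genes called of 24 tested for catecholamine and acetylcholine transmission, against 0.598% of all genes. DBH, which makes noradrenaline, had a log2FC of -0.46 (adjusted p = 0.55). The calls of CHRNA3 and GCH1 were both lost without control replicate 2 (adjusted p = 0.0692 and 0.161) and without treated replicate 3 (0.102 and 0.303), and GCH1 also without control replicate 3, treated replicate 1 and treated replicate 2. Of 38 synaptic vesicle genes tested, 2 were called higher and 1 lower, against 0.335% and 0.263% of all genes. SYT17 (log2FC 1.06, standard error 0.15, adjusted p = 0.00749) and MYRIP (log2FC 0.93, standard error 0.14, adjusted p = 0.0129) rose. RAB27B, a vesicle-docking GTPase, fell, with 10.8, 14.3 and 16.5 CPM with ATRA alone and 5.94, 5.55 and 4.38 CPM with H2O2 (log2FC -1.40, standard error 0.20, adjusted p = 0.00749). MYRIP was also not called without control replicate 2 (adjusted p = 0.0922) and treated replicate 1 (0.0526).

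**Figure D3:**
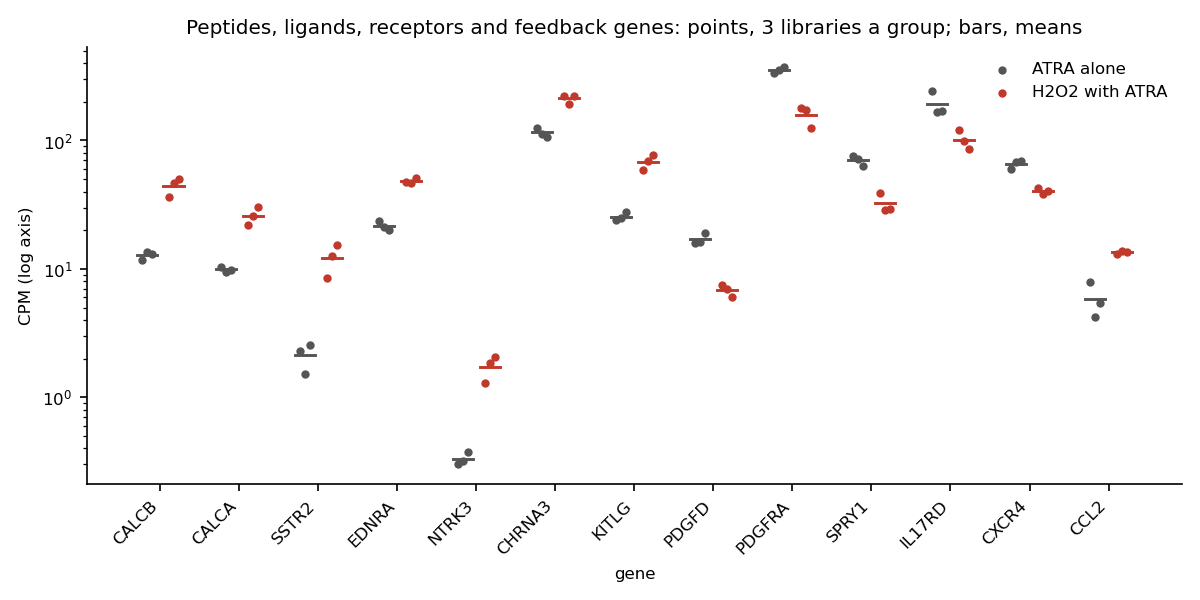
CPM of 13 peptide, ligand, receptor and feedback genes on a log axis, with 1 point for each of the 3 libraries with ATRA alone (grey) and the 3 with H2O2 and ATRA (red) and bars at the group means. CALCB, CALCA, SSTR2, EDNRA, NTRK3, CHRNA3, KITLG and CCL2 lie higher with H2O2 and PDGFD, PDGFRA, SPRY1, IL17RD and CXCR4 lower, without overlap between the groups.

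Among cytokines, chemokines and innate immune receptors, 1 of 21 tested genes was called higher and 2 lower, against 0.335% and 0.263% of all genes. Of the 21, 15 had a log2FC above 0 (49.9% of all genes did), with a median of 0.55. In 9 every treated library was above every control, while in 3 every treated library was below (against 6.65% and 7.3% of all genes). The monocyte chemokine CCL2 had 7.86, 4.22 and 5.38 CPM with ATRA alone and 13.1, 13.8 and 13.6 CPM with H2O2 (log2FC 1.21, standard error 0.21, adjusted p = 0.0254). CXCR4, the receptor that guides neural crest cells and neuroblasts, had 59.5, 67.7 and 69.5 CPM with ATRA alone and 42.9, 38.5 and 40.3 CPM with H2O2 (log2FC -0.69, standard error 0.12, adjusted p = 0.0231). IL20RA, a receptor subunit of the interleukin 10 family, had 17.6, 20.2 and 23.2 CPM with ATRA alone and 10.4, 12.2 and 12.4 CPM with H2O2 (log2FC -0.80, standard error 0.15, adjusted p = 0.0411). The exact test called 7 genes of this list higher and 2 lower, against 0.747% and 0.643% of all genes. Among those higher were LIF, TLR4 and CD274, named after their values were seen, with log2FC values of 1.79, 2.13 and 1.39 and quasi-likelihood adjusted p = 0.0572, 0.181 and 0.2. Each of the 3 calls was lost without any 1 of the libraries other than control replicate 1. Of 21 tested MHC class I and interferon genes, SAMD9L alone was called, with 0.567, 0.971 and 1.1 CPM with ATRA alone and 2.74, 3.35 and 2.24 CPM with H2O2 (log2FC 1.67, standard error 0.32, adjusted p = 0.0375), and its call was lost without any 1 library other than control replicate 3. HLA-B and TAP1 were listed at or near 0 reads in all 6 libraries and are not read.

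The direct response to peroxide held 1 called gene among NRF2 targets and none among scavenging enzymes. Of 22 NRF2 targets tested, 16 had a log2FC above 0 (49.9% of all genes did), with a median of 0.19. In 8 every treated library was above every control, against 6.65% of all genes. The quasi-likelihood test called 1 of the 22 higher (4.55%, against 0.335% of all genes) and none lower, and the exact test called 3 higher (against 0.747%) and 1 lower. The called gene was AKR1C3, an aldo-keto reductase, with 3.36, 4.87 and 3.99 CPM with ATRA alone and 7.02, 10.3 and 8.39 CPM with H2O2 (log2FC 1.08, standard error 0.21, adjusted p = 0.0448), and its call was lost without any 1 of the 6 libraries (adjusted p = 0.0508 to 0.239). The quinone reductase NQO1, the classical NRF2 target, had 32.5, 35.03 and 46.9 CPM with ATRA alone and 65.3, 64.4 and 60.6 CPM with H2O2, just outside the FDR threshold (log2FC 0.73, standard error 0.15, adjusted p = 0.0511), and was called by the exact test, as was OSGIN1 (log2FC 1.75, adjusted p = 0.203); both were named after their values were seen. The thioredoxin reductase TXNRD1 had a log2FC of 0.34 (adjusted p = 0.454). FTH1, the ferritin heavy chain, had 118, 59.1 and 54.9 CPM with ATRA alone and 50.7, 30.1 and 39.3 CPM with H2O2, and was called lower by the exact test alone (quasi-likelihood log2FC -0.96, standard error 0.27, adjusted p = 0.22); it shares sequence with many processed copies, and its reads are uncertain.

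No enzyme that removes peroxide or superoxide was called among 23 tested, which include catalase, superoxide dismutases, glutathione peroxidases and peroxiredoxins. Their log2FC values ran from -0.67 to 0.54, with a median of 0.12. The low end was TXNIP, the inhibitor of thioredoxin, which had 233, 268 and 306 CPM with ATRA alone and 182, 172 and 153 CPM with H2O2 and was called lower by the exact test (log2FC -0.67, quasi-likelihood adjusted p = 0.0567). Neither the ATF4 and unfolded protein response genes (28 tested, median -0.04) nor the heat shock proteins (18 tested, median 0.02) held a called gene by either test.

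Of 29 tested hypoxia and glycolysis genes, 22 had a log2FC below 0, where 49.9% of all genes were above 0, and the median was -0.20. In 10 of the 29 every treated library was below every control, against 7.3% of all genes. NDRG1, which is induced by hypoxia and by differentiation, was the 1 called member, with 47.7, 52.2 and 54.4 CPM with ATRA alone and 33.8, 25.3 and 30.2 CPM with H2O2 (log2FC -0.79, standard error 0.14, adjusted p = 0.0229), and kept its call without control replicate 1 and without treated replicate 1. The exact test called 5 members lower and none higher, against 0.643% of all genes, and these were NDRG1, ADM, HK2, PDK1 and AK4. Named after their values were seen, the last 4 had log2FC values of -0.78, -0.77, -0.73 and -0.87 and quasi-likelihood adjusted p = 0.0829, 0.0693, 0.0676 and 0.146.

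The machinery of retinoic acid itself was not called. Of 22 receptors, binding proteins and metabolic enzymes, 19 were tested, with a median log2FC of 0.08. CYP26A1, the retinoic acid hydroxylase that ATRA strongly induces, had 1083, 1136 and 1010.0 CPM with ATRA alone and 1490.2, 1246 and 1156 CPM with H2O2 (log2FC 0.27, adjusted p = 0.686). CRABP2, which carries retinoic acid to its receptors, had 1723, 1667 and 1532 CPM with ATRA alone and 2316, 1844 and 2108 CPM with H2O2 (log2FC 0.35, adjusted p = 0.505). ALDH1A2 and RDH10, enzymes of retinoic acid synthesis named after their values were seen, were called higher by the exact test, with log2FC values of 1.38 and 0.78 and quasi-likelihood adjusted p = 0.1 and 0.0693.

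Housekeeping programmes held no call by the quasi-likelihood test. The 40 cell cycle and DNA replication genes had log2FC values of -0.23 to 0.24, a median of 0.06 and no call by either test, while CDKN1A rose. The 24 cholesterol and fatty acid synthesis genes ran from -0.41 to 0.26 with no call. The 85 ribosomal protein genes had log2FC values of -1.21 to 0.35 with a median of 0.01. The 13 genes of mitochondrially encoded proteins had values of -1.06 to 0.02 with a median of -0.22, and 1 gene of each of these groups was called lower by the exact test. For the mitochondrial genes control replicate 1 had the highest summed level, 8676 CPM against 4070.4 to 6351 CPM in the other 5 libraries. Notch pathway genes held no call among 19 tested, and HES1 and LFNG, named after their values were seen, were called higher by the exact test (log2FC 0.70 and 0.80, quasi-likelihood adjusted p = 0.0651 and 0.0652).

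**Figure D4:**
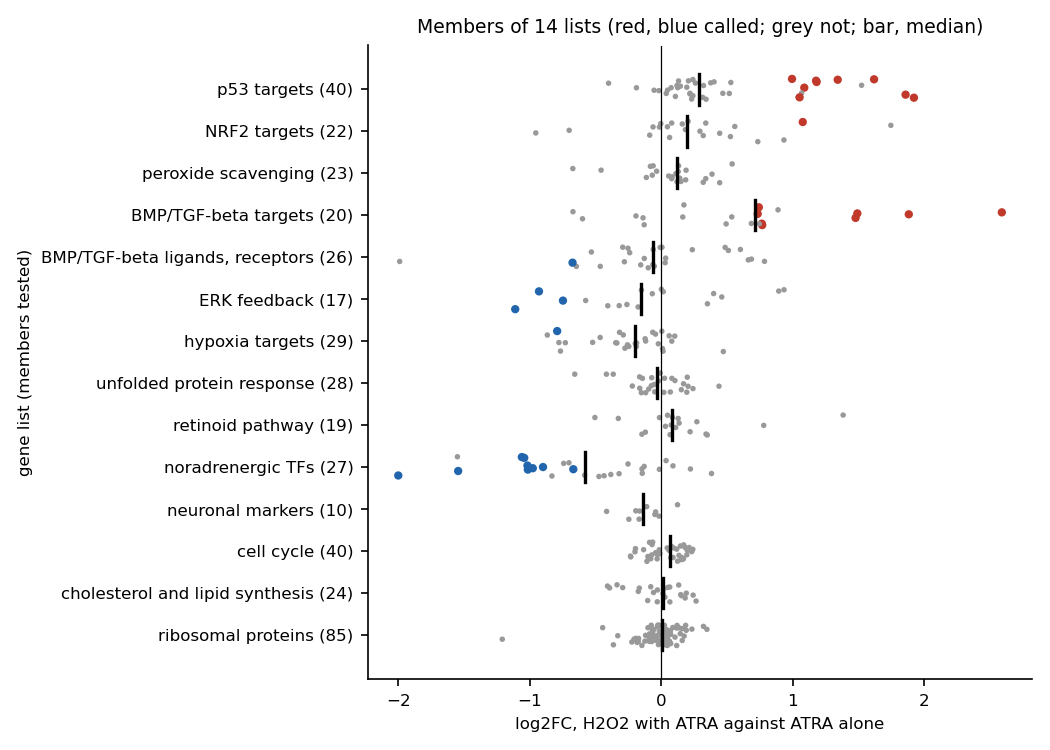
Log2FC of every tested member of 14 gene lists, 1 point per gene, with the number of members tested in brackets. Red and blue points were called higher and lower, grey points were not called, and black bars are medians. The p53 and BMP/TGF-beta targets lie to the right (medians 0.29 and 0.71). The noradrenergic and neuroblastoma transcription factors (labelled noradrenergic TFs) lie to the left (median -0.58), whereas cell cycle genes stay within -0.23 and 0.24. The lists were chosen with earlier results of these data known, several of the transcription factors with their change known. Their positions are not independent evidence.

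RNA of some matrix and cell surface genes also changed. PLAT, tissue plasminogen activator, which turns plasminogen into plasmin, had 25.9, 22.2 and 23.5 CPM with ATRA alone and 67.5, 69.9 and 78.8 CPM with H2O2 (log2FC 1.59, standard error 0.13, adjusted p = 3.02e-04). The metalloprotease ADAMTS1 fell, with 106, 102 and 117 CPM with ATRA alone and 69.4, 62.7 and 51.4 CPM with H2O2 (log2FC -0.83, standard error 0.14, adjusted p = 0.0168), and was not called without control replicate 2 (adjusted p = 0.0673), treated replicate 2 (0.0806) and treated replicate 3 (0.193). Of 66 matrix genes tested, 4 were called higher and none lower (against 0.335% and 0.263% of all genes): HAS2 (above), CRTAC1, MGP and EMILIN3. HAS2 passed the filter on low counts only through its treated libraries. CRTAC1, a secreted cartilage protein, had 6.26, 6.06 and 5.58 CPM with ATRA alone and 18.3, 17.8 and 25.3 CPM with H2O2 (log2FC 1.78, standard error 0.17, adjusted p = 0.00111). MGP, a matrix protein that inhibits calcification and binds BMPs, had 7.03, 7.3 and 8.47 CPM with ATRA alone and 14.05, 20.98 and 18.2 CPM with H2O2 (log2FC 1.23, standard error 0.18, adjusted p = 0.00775), and EMILIN3 had 69.5, 57.4 and 50.5 CPM with ATRA alone and 131, 99.5 and 120.4 CPM with H2O2 (log2FC 0.98, standard error 0.15, adjusted p = 0.0119). Of the 4, 1 was called without control replicate 2 and 1 without treated replicate 3, CRTAC1 in both, and 8 matrix genes were called without control replicate 1.

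Among enzymes that modify surface sugars, 2 were called, in opposite directions. FUT9, the fucosyltransferase that makes the Lewis x epitope of neural cells, had 60.1, 47.6 and 49.3 CPM with ATRA alone and 19.6, 20.9 and 13.3 CPM with H2O2 (log2FC -1.55, standard error 0.18, adjusted p = 0.00184). CHST8, a sulfotransferase of peptide hormone sugars, had 26.02, 25.9 and 21.5 CPM with ATRA alone and 74.8, 57.3 and 71.6 CPM with H2O2 (log2FC 1.47, standard error 0.14, adjusted p = 0.00111). These were the 2 called of 57 tested glycan enzymes, against 0.598% of all genes, and the median log2FC of the 57 was -0.05. Both were called with any 1 library left out. SDC2, a heparan sulfate proteoglycan, had 69.7, 78.6 and 93.2 CPM with ATRA alone and 45.5, 35.3 and 35.8 CPM with H2O2 (log2FC -1.05, standard error 0.15, adjusted p = 0.00749). Of 67 tested axon guidance genes, 50 had a log2FC below 0, with a median of -0.20, where 49.9% of all genes were above 0. In 13 of the 67 every treated library was below every control, against 7.3% of all genes. The exact test called 4 of them lower and 1 higher, against 0.643% and 0.747% of all genes. By the quasi-likelihood test SEMA5A was called lower, with 148, 94.7 and 93.3 CPM with ATRA alone and 47.9, 44.4 and 41.3 CPM with H2O2, where control replicate 1 stood above the other controls (log2FC -1.33, standard error 0.18, adjusted p = 0.00505). SDC2 was not called without treated replicate 2 (adjusted p = 0.0564), SEMA5A was called without each library other than treated replicate 3, and without control replicate 1, 4 guidance genes were called.

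Wnt signalling held 2 called genes of 41 tested, both lower, against 0.263% of all genes. The median log2FC of the 41 was -0.13. In 12 of the 41 every treated library was below every control, against 7.3% of all genes. The receptor FZD7 had 101, 81.00 and 82.9 CPM with ATRA alone and 59.7, 45.1 and 44.7 CPM with H2O2 (log2FC -0.83, standard error 0.15, adjusted p = 0.0285), and the corepressor TLE1 had 65.6, 59.5 and 52.1 CPM with ATRA alone and 37.1, 30.5 and 31.8 CPM with H2O2 (log2FC -0.84, standard error 0.13, adjusted p = 0.0145). Neither was called without control replicate 2, treated replicate 2 or treated replicate 3. Among 20 tested immediate early genes, 2 were called higher and 1 lower, against 0.335% and 0.263% of all genes. DUSP2 (log2FC 1.12, standard error 0.15, adjusted p = 0.00505) and the kinase SGK1 (log2FC 0.76, standard error 0.12, adjusted p = 0.0141) rose. The GTPase GEM (log2FC -0.95, standard error 0.15, adjusted p = 0.0135) fell, and 1 of these immediate early genes was called without control replicate 2 and without treated replicate 2. The ion channel lists held 1 called gene each: FGF14, an intracellular partner of sodium channels, had 23.95, 26.2 and 26.9 CPM with ATRA alone and 14.01, 9.06 and 11.03 CPM with H2O2 (log2FC -1.18, standard error 0.17, adjusted p = 0.00749), and the potassium channel KCNK1 had 17.8, 19.8 and 20.8 CPM with ATRA alone and 11.3, 10.3 and 11.9 CPM with H2O2 (log2FC -0.80, standard error 0.14, adjusted p = 0.0266) and was called when control replicate 1 was left out, but not when any of the other 5 was. In the neuronal cytoskeleton, 30 genes were tested: ENC1, an actin-binding protein of developing neurons, had 14.7, 11.8 and 11.4 CPM with ATRA alone and 28.9, 32.8 and 35.1 CPM with H2O2 (log2FC 1.35, standard error 0.15, adjusted p = 0.00164), the intermediate filament protein SYNM rose (log2FC 0.82, standard error 0.15, adjusted p = 0.0325), with a call that held when control replicate 1 was left out and for no other library, and NRSN1, a neurite protein, fell, with 52.9, 44.97 and 46.3 CPM with ATRA alone and 27.4, 21.1 and 24.2 CPM with H2O2 (log2FC -0.99, standard error 0.14, adjusted p = 0.00674). NEFM, a neurofilament named after its values were seen, had 129.6, 76.3 and 183 CPM with ATRA alone and 72.7, 55.1 and 64.1 CPM with H2O2 and was called lower by the exact test alone (quasi-likelihood log2FC -1.02, standard error 0.25, adjusted p = 0.122).

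Of the 132 called genes, 61 belonged to none of the 46 lists. The gene with the smallest adjusted p of all, SAMD11 (chromosome 1, 859303 to 879955, plus strand), had 5.24, 3.69 and 2.66 CPM with ATRA alone and 30.3, 31.6 and 29.9 CPM with H2O2 (log2FC 2.97, standard error 0.21, adjusted p = 2.05e-04). RP11-54O7.3 and RP11-54O7.1, transcripts with clone-based names and no position matched here, rose as well, with mean values of 1.31 CPM with ATRA alone and 10.7 CPM with H2O2 (log2FC 3.01, standard error 0.32, adjusted p = 0.00136) and with mean values of 0.524 CPM with ATRA alone and 2.57 CPM with H2O2 (log2FC 2.27, standard error 0.38, adjusted p = 0.019). The second of these was not called without control replicate 2 (adjusted p = 0.0938) and treated replicate 2 (0.0633). NOC2L (879583 to 894689, minus strand), whose 3′ end overlaps that of SAMD11, had 103, 112 and 125 CPM with ATRA alone and 141, 102 and 124 CPM with H2O2 (log2FC 0.11, standard error 0.14, adjusted p = 0.918). NOC2L was not called, its log2FC was -0.01 without treated replicate 1, and without strand in the counting reads in the overlap cannot be assigned to one of them.

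Further unlisted genes were among those of smallest adjusted p. AP000479.1 had 15.8, 15.8 and 16.6 CPM with ATRA alone and 33.1, 40.9 and 41.6 CPM with H2O2 (log2FC 1.26, standard error 0.13, adjusted p = 0.00136). TMEM229A, a membrane protein, had 30.8, 31.97 and 28.97 CPM with ATRA alone and 14.4, 12.02 and 11.1 CPM with H2O2 (log2FC -1.29, standard error 0.14, adjusted p = 0.00164). FSTL4, a follistatin-like secreted protein, had 9.76, 6.1 and 8.04 CPM with ATRA alone and 1.97, 2.53 and 2.37 CPM with H2O2 (log2FC -1.79, standard error 0.23, adjusted p = 0.00438). All 3 were called with any 1 library left out. PPAP2B, a lipid phosphate phosphatase, had 11.2, 16.4 and 15.1 CPM with ATRA alone and 5.83, 4.87 and 4.05 CPM with H2O2 (log2FC -1.54, standard error 0.20, adjusted p = 0.00505). STARD13, a GTPase-activating protein, had 9.37, 7.98 and 10.3 CPM with ATRA alone and 3.79, 3.43 and 3.14 CPM with H2O2 (log2FC -1.42, standard error 0.19, adjusted p = 0.00505). TNFRSF19 (TROY), a receptor of the tumour necrosis factor family in neural progenitors, had 54.4, 56.7 and 55.1 CPM with ATRA alone and 32.7, 31.8 and 27.9 CPM with H2O2, with 3 tight controls and 3 tight treated libraries (log2FC -0.85, standard error 0.12, adjusted p = 0.00749) and no call without control replicate 2 (adjusted p = 0.0565).

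**Figure D5:**
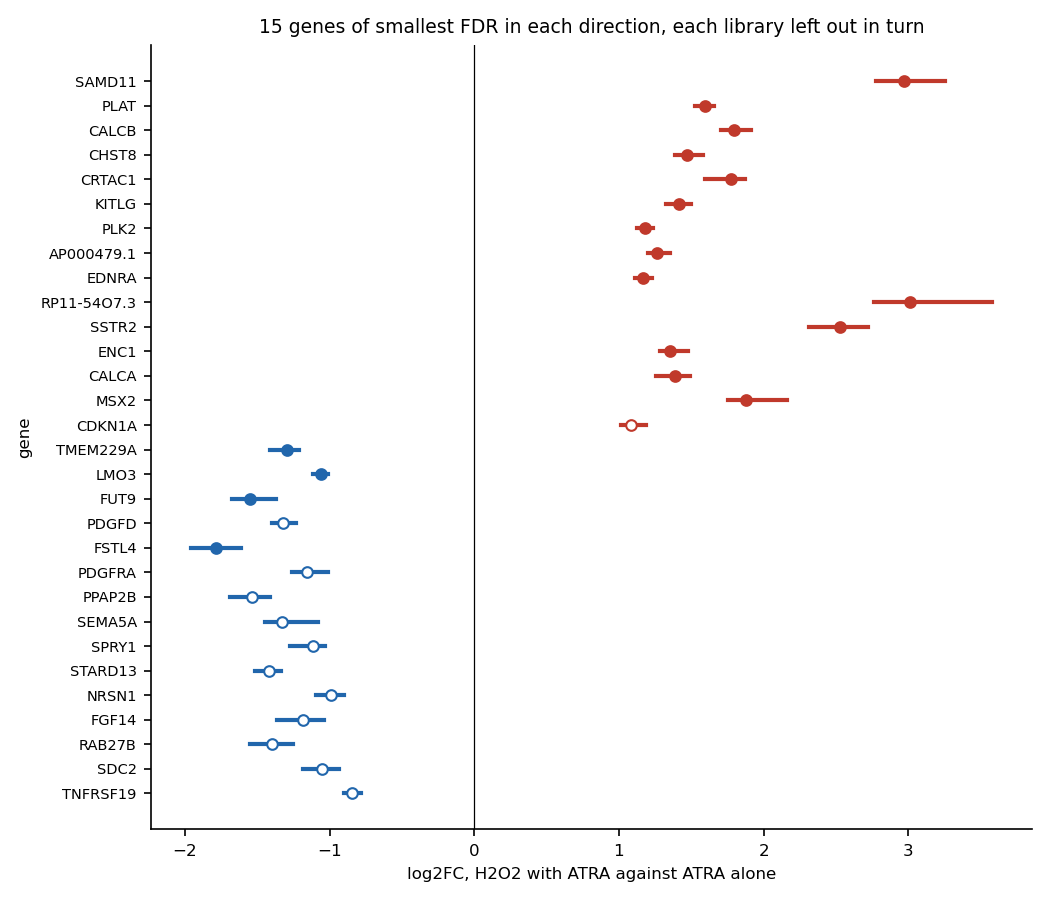
Log2FC of the 15 genes of smallest adjusted p in each direction (points) and its range when each of the 6 libraries is left out in turn (lines). Filled points were called in all 6 of those fits and open points in fewer, and no line crosses 0, from the smallest change (TNFRSF19, -0.85 with all libraries) to the largest (RP11-54O7.3, 3.01).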

How the data were processed

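RNA-seq libraries were made from SH-SY5Y total RNA after removal of ribosomal RNA, and 6 are used here, 3 per group as the titles of the samples give them. The authors trimmed reads with Cutadapt 2.10, mapped them to hg19 with HISAT2 2.1.0 and counted them per gene symbol with HTSeq 0.7.2, by the processing notes and the methods, and deposited the raw counts per library without normalization. The annotation version and the strand setting are not given in the sources used here. The 5 closing entries of each file that name no gene were dropped. The authors' tables of their own comparisons hold log2 fold changes and p-values and were not used.

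Counts on 55765 symbols were taken into edgeR 4.0.16 under R 4.3.3. Genes were kept when 3 libraries reached 0.181 CPM, the value of 5 counts in the smallest library. CPM values of single genes are scaled by TMM factors. Summed CPM of marker groups and of the mitochondrial genes are scaled by the total count of each library alone. The groups were compared with the quasi-likelihood test, with Benjamini-Hochberg adjustment over all 22089 genes tested. The alternatives were edgeR's exact test (the test the methods name), DESeq2 1.42.0, limma-voom 3.58.1, other scaling factors, other filters, robust estimation, a replicate block, no threshold on the log2FC and fits that leave out 1 of the libraries. The fits were tested on simulated data.

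The members and the 46 gene lists were chosen with earlier results of these data known. Pseudogenes were taken out of the hnRNP list after its values were seen. Named are the 15 genes of smallest FDR in each direction, the called members of each list with the most abundant others of some, 5 neuronal markers and the neighbours of SAMD11, and lists without a call are mostly given by counts and ranges. Some genes that this rule names are not reported here, though they stay in the counts. Positions come from GENCODE v44 lifted to GRCh37, in which 16790 of the 22089 symbols (76.0%) matched 1 gene by symbol or RefSeq synonym. Between replicates of a group, the chi-square per degree of freedom was 34.9 to 158, far above the level of counting noise.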

Additional observations from a re-analysis of the deposited data

How the results depend on the processing

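The 132 calls (74 higher, 58 lower) became 307 (165 and 142) with edgeR's exact test, 308 (157 and 151) with DESeq2, 443 (205 and 238) when no gene was filtered out and 80 (57 and 23) when scaled by library size alone. With 1 library left out, the counts ran from 18 to 218 in all, from 14 to 140 higher and from 4 to 78 lower. Fewer libraries were tested in those fits, and the cause of the spread among them was not tested. With 1 library left out, the p53 targets called ran from 1 to 9 and the BMP and TGF-beta targets from 1 to 9. The noradrenergic and neuroblastoma transcription factors ran from 1 to 10 in those fits, and 1 of them was called with library size only. Limma-voom, RLE and upper-quartile factors, filterByExpr and robust estimation gave 128 to 165 calls, and dropping the threshold on the log2FC left 132.

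No source says that replicate numbers mark paired cultures. The deviations from group means of same-numbered libraries had correlations of -0.0626, -0.0733 and -0.0660, and the replicate block gave 180 calls, 88 higher and 92 lower, of which 130 were among the 132.

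The log2FC of SV2A, which was not called, turned positive with upper-quartile factors (0.0059) and with library size only (0.026), and ran from -0.13 to 0.10 with 1 library left out. That of NOC2L ran from -0.012 to 0.23 with 1 library left out. No other gene printed here with a log2FC changed its sign. Genes of few reads limit the comparison: TH, for example, could not be tested.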
